A study of Mus musculus with 6 samples.

Results

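Glucocorticoids kill T lymphoblasts, and they act through a receptor that is itself a transcription factor. The 9 genes described here are the glucocorticoid receptor Nr3c1, its immunophilin cochaperones Fkbp4 and Fkbp5, the receptor targets Tsc22d3, Per1, Klf9, Zbtb16 and Sgk1, and Nt5c2, a nucleotidase gene of relapsed acute lymphoblastic leukaemia. They were chosen by gene symbol from 23306 identifiers, and all 9 were present. PolyA RNA was sequenced from 6 samples of T-ALL (acute lymphoblastic leukaemia of the T lineage) in the mouse, harvested from bone marrow on the C57BL/6 strain. Of these, 3 were labelled wild type (Phf6 WT) and 3 knockout (Phf6 KO) for Phf6, which encodes a chromatin-associated protein and is often mutated in human T-ALL. The labels call the leukaemia isogenic. The deletion was made by injecting tamoxifen to activate an inducible Cre, with corn oil as the vehicle; the labels do not say sample by sample which was given. The sources used here do not give the promoter driving Cre, the lesion that started the leukaemia, the age and number of mice, or whether samples of a group came from separate mice. The p-values below therefore measure the spread between these samples, which may be technical in part.

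In an unstimulated cell the receptor waits in the cytoplasm in a complex with HSP90. HSC70 (Hspa8) and HOP (Stip1) load it onto HSP90, p23 (Ptges3) stabilises the mature form, and an immunophilin occupies the remaining place. FKBP51, the product of Fkbp5, lowers hormone affinity and nuclear transfer, whereas FKBP52, the product of Fkbp4, favours both. The bound receptor then enters the nucleus and acts at glucocorticoid response elements. Fkbp5, Tsc22d3 (GILZ, an anti-inflammatory leucine zipper protein), Per1 (a circadian repressor), Klf9 (a zinc-finger repressor), Zbtb16 (PLZF) and Sgk1 (a survival kinase) are textbook targets. Nt5c2 lies outside this axis: it dephosphorylates purine nucleotides and the active products of thiopurine drugs.

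The libraries held 46067511 to 54953145 reads assigned to genes, and values are given as normalised reads, which are counts divided by 1 size factor per library. Phf6 checked the labels, with 5508, 4240 and 5075 normalised reads in Phf6 WT libraries 1 to 3 and 1781, 2337 and 1755 in Phf6 KO (log2 fold change -1.34 ± 0.13 SE, limma adjusted p 0.00184). The Phf6 KO mean was 0.396 of the Phf6 WT mean, and the source of the remaining reads was not tested. Of 17993 genes tested, 8.75% were called at an adjusted p under 0.05 (5.32% rose and 3.43% fell), and the median log2 fold change was -0.01. The 14 T-lineage markers measured were above 0 in every library. They summed to 5349 to 5753 CPM, reads scaled to a common library total, in Phf6 WT and 4639 to 5322 in Phf6 KO, and 3 of 14 fell. Lists of markers of other marrow cells were summed in the same way. The 22 neutrophil markers summed to 132 to 478 CPM in Phf6 WT and 1109 to 1412 in Phf6 KO, where 11 rose. The largest parts of that sum, Ngp (173 CPM), S100a9 (162 CPM) and S100a8 (127 CPM), did not pass (log2 fold change 2.54, 2.25 and 2.24). Ly6g (0.206 CPM) and Padi4 (7.40 CPM) did not pass either and overlapped between groups (0.53 and 0.15). For the macrophage and monocyte list the sums were 57.1 to 108 and 180 to 290 CPM, and 6 of 16 rose (Csf1r, Cd68, Ctss, F13a1, Fcgr1 and Ly6c2). Lyz2, the largest part of that sum (69.9 CPM), did not pass (log2 fold change 1.98). The tissue macrophage genes C1qa, C1qb, C1qc and Slc40a1 did not pass either (-0.32, 0.08, -0.23 and -0.49). Nor did Adgre1, Cd163, Vcam1, Mrc1 and Ccr2, whose values were all positive (1.18, 0.78, 0.81, 0.40 and 1.75). For B-cell markers the sums were 6.70 to 8.96 and 14.96 to 24.2 CPM, and 7 of 10 rose. Of these, Ms4a1 and Pax5 lay under 10 normalised reads in every Phf6 WT library, so they entered the test only through Phf6 KO. The stromal and endothelial list summed to 1192 to 1218 and 1514 to 1917 CPM, nearly all of it from Pdgfrb (790 CPM, 0.40, rose), Col1a2 (509 CPM, 0.49, not past the threshold) and Pecam1 (142 CPM, 0.03, not past the threshold). Lpl also rose, Col1a1 (1.69 CPM) fell by 1.21 on the log2 scale, and Cxcl12, Lepr and Col3a1 averaged 0.534, 0.132 and 0.0384 CPM. Each of these 5 sums gave p = 0.1 in a two-sided exact permutation test, the smallest that 3 samples against 3 allow. Innate lymphocyte sums (673 to 887 and 719 to 880 CPM, p = 0.7, exact test) and erythroid sums (7.15 to 13.2 and 9.36 to 21.7 CPM, p = 0.3, exact test) overlapped. In bulk RNA, fewer cells of a type and less RNA per cell cannot be told apart.

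Promoter windows of RefSeq (build GRCm38.p6) were available for 7 of the 9 genes, 21 windows in all, and the 250 bases before each start were searched on both strands. Printed below are the single windows of the genes that changed (Fkbp4 and Klf9), the windows with a motif of the abundant genes that varied most between libraries (1 of 2 for Per1 and 1 of 3 for Tsc22d3) and the Sgk1 window with a full response element (1 of 6). They are written 5′ to 3′ on the gene's strand without annotated exon bases, and capitals mark motif matches.
Fkbp4, chr6:128438678-128438906, minus strand: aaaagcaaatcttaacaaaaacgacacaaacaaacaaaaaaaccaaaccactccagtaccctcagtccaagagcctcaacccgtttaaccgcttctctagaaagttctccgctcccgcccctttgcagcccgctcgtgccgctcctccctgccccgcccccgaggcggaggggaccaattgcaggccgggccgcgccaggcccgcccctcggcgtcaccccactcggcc
Klf9, chr19:23140976-23141225, plus strand: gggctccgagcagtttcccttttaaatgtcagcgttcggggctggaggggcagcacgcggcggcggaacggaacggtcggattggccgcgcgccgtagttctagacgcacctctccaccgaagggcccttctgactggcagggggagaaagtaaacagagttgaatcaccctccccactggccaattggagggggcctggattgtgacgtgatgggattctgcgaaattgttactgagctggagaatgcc
Per1, chr11:69098699-69098947, plus strand: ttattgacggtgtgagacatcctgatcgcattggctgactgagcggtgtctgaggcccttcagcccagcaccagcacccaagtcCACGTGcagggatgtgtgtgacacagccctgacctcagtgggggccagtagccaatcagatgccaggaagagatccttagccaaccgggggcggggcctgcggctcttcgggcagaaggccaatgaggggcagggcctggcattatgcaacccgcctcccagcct
Tsc22d3, chrX:140600660-140600772, minus strand: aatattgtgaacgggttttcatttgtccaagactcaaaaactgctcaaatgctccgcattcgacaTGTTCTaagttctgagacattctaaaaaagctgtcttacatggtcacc
Sgk1, chr10:21993640-21993889, plus strand: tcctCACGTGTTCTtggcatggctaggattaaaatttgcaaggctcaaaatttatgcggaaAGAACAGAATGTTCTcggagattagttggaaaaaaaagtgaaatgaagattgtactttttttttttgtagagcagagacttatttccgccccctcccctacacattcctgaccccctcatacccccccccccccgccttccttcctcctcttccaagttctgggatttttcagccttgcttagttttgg
The full glucocorticoid response element, searched as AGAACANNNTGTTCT, was found 189 to 175 bases before this Sgk1 start as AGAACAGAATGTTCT, a pair of half-sites. Of 32851 windows of this length, 3 (0.00913%) held it, at Sgk1, Acnat2 and Gm35041. A half-site, AGAACA or its reverse complement TGTTCT, lay 185 to 180 bases before the Tsc22d3 start and is present in 16.1% of all windows. It also occurred 242 to 237 bases before the Sgk1 start, overlapping an E-box (CACGTG) at 246 to 241, and in 2 other Sgk1 windows. The other Tsc22d3 windows and the other Per1 window matched none of the motifs searched. The printed Per1 window held an E-box 166 to 161 bases before its start, the element through which the clock proteins act, and 6.02% of windows hold one. Fkbp5 had an E-box at 169 to 164 bases before its start, and 1 of the Nt5c2 windows had one. The Fkbp4 and Klf9 windows matched none of the motifs, which included the heat shock core TTCNNGAA (7.17% of windows), found in 1 other Sgk1 window. Many known receptor sites lie far from promoters and would not appear in such windows. Only exact matches to the stated letters were searched, so a site that differs from them would not appear either.

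Across the 9 genes, 1 rose and 1 fell, which is 22.2% against the 8.75% of all tested genes. Klf9 rose and Fkbp4 fell. The receptor itself, Fkbp5, Tsc22d3, Per1, Zbtb16, Sgk1 and Nt5c2 did not pass the test. Log2 fold changes were positive for 6 genes and negative for 3, with a median of 0.12.

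**Figure D1:**
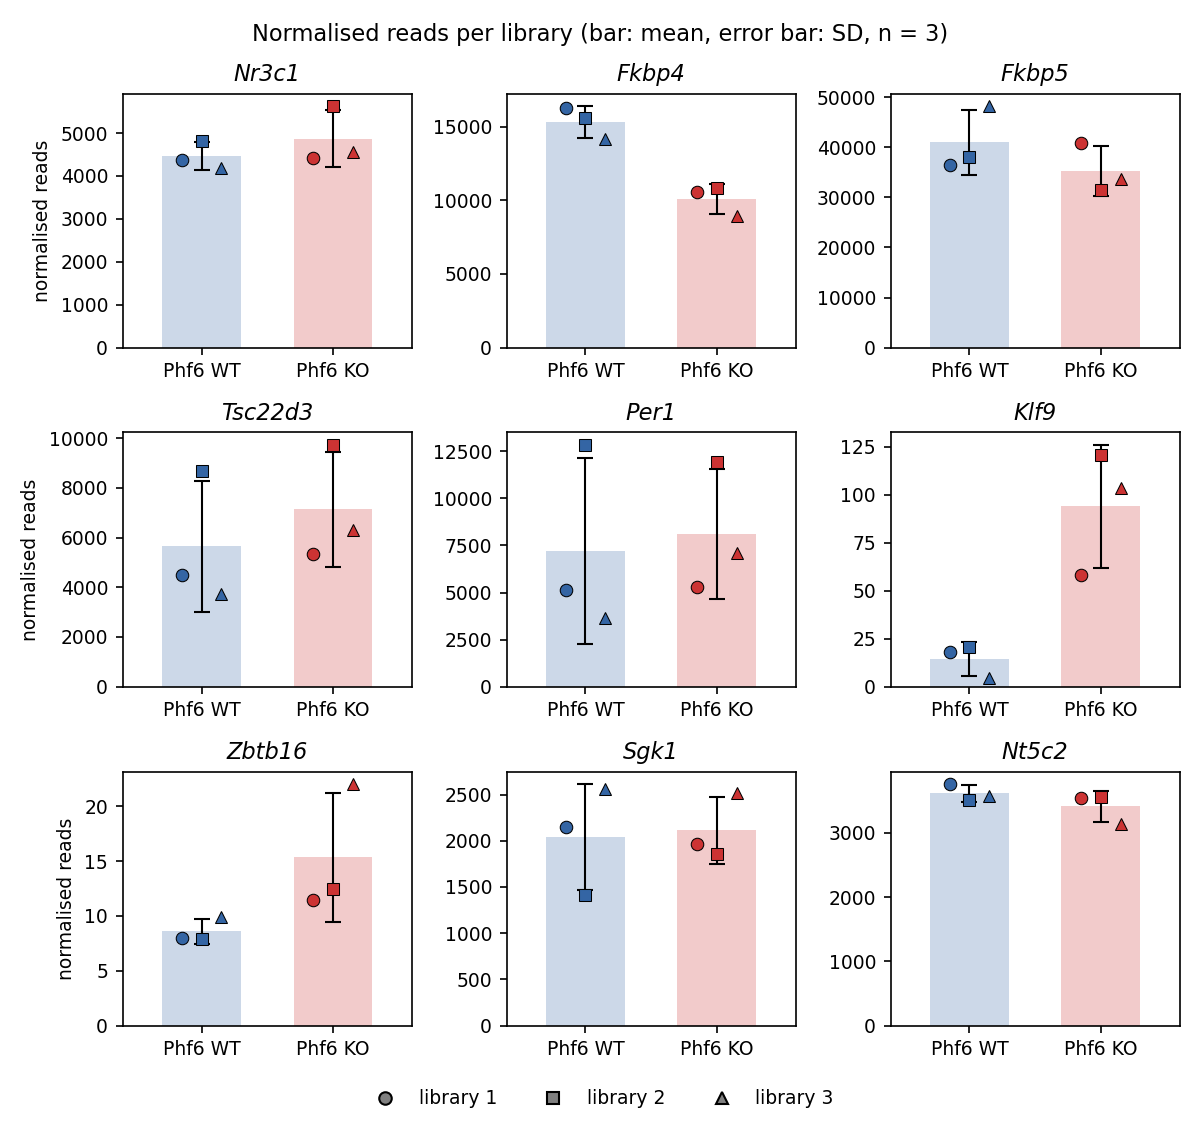
Normalised reads (linear axis) of each of the 9 genes in the 3 Phf6 WT and 3 Phf6 KO libraries; bars are means, error bars are SD and symbols show the library number. Fkbp4 is lower in every Phf6 KO library (8945 to 10830) than in any Phf6 WT library (14142 to 16261), Klf9 is higher (58.4 to 120 against 4.52 to 20.7), and library 2 is the highest of both groups for Tsc22d3 and Per1.

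To compare levels between genes, reads were divided by exon length and scaled to a common total per library (TPM). Fkbp4 (mean 267.8 TPM over 6 libraries) and Fkbp5 (238.1 TPM) were the most abundant, above 97.3% and 96.8% of tested genes. Tsc22d3 (86.7 TPM) and Per1 (79.8 TPM) followed, then Nr3c1 (35.9 TPM), Sgk1 (25.2 TPM) and Nt5c2 (18.8 TPM). Klf9 (0.678 TPM) and Zbtb16 (0.136 TPM) were near the floor, above 11.4% and 1.09% of tested genes. Neighbours in this order overlapped between libraries at several steps: Fkbp4 with Fkbp5 and Tsc22d3 with Per1 in both groups, and Sgk1 with Nt5c2 and Klf9 with Zbtb16 in Phf6 WT. The drop from Nt5c2 to Klf9 exceeded the spread of the libraries in both groups.

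**Figure D2:**
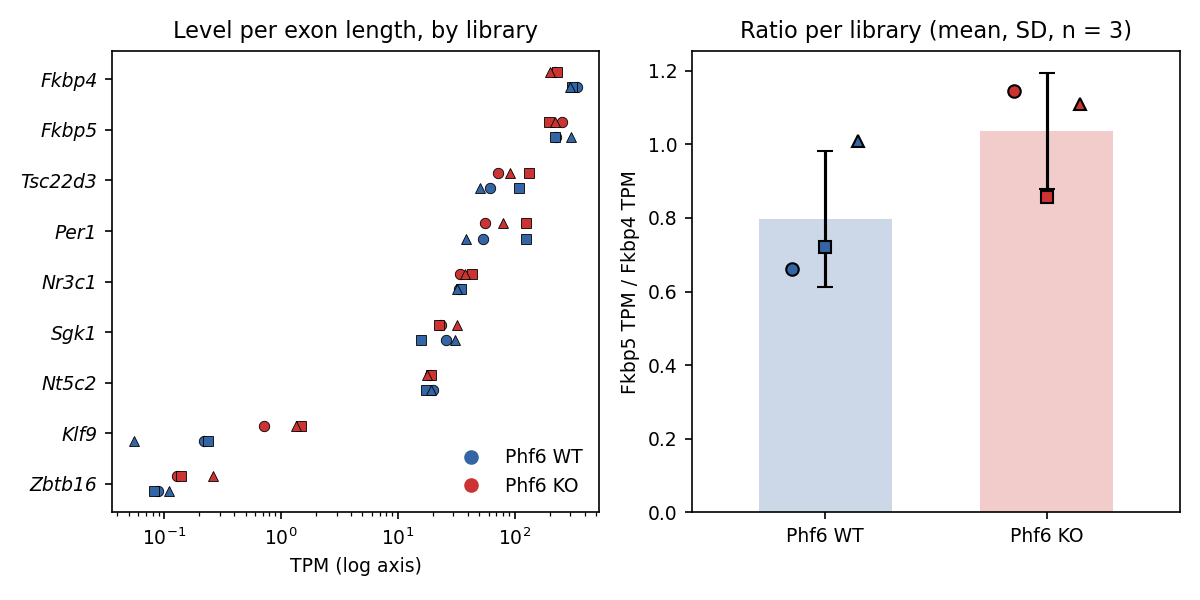
Left, TPM of the 9 genes in each library on a log axis, ordered by mean; right, the ratio of Fkbp5 TPM to Fkbp4 TPM in each library (bar, mean; error bar, SD; n = 3 per group). Symbols show the library number (circle 1, square 2, triangle 3); 7 genes lie above 10 TPM in every library and Klf9 and Zbtb16 below 2 TPM, and the ratio is 0.662 to 1.01 in Phf6 WT and 0.857 to 1.15 in Phf6 KO.

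Nr3c1, on chromosome 18 (39410545 to 39519421, GRCm38, minus strand), encodes the receptor. It had 4383, 4815 and 4182 normalised reads in Phf6 WT and 4425, 5640 and 4554 in Phf6 KO. Library 2 was the highest of each group, and the groups overlapped. The means were 4460 ± 324 and 4873 ± 667 (SD, n = 3 each), and the log2 fold change of 0.12 ± 0.11 (SE) had an interval from -0.12 to 0.36 (95%; limma adjusted p 0.523). Of 10361 other genes with at least 100 normalised reads on average, the expression pattern of Nr3c1 across the 6 libraries was most like that of Tmem41b, Usp27x and Pard6b (Pearson r 0.9936, 0.9930 and 0.9884). These are descriptions of 6 libraries with shared scaling. Coregulators of the receptor (coactivators, corepressors and remodelling subunits) numbered 29 tested genes, of which 0 rose and 2 fell (6.9% called, below the 8.75% of all tested genes; median -0.10 on the log2 scale). The falls were Med14, a Mediator subunit that binds the receptor (-0.38 ± 0.09), and Trim28, a corepressor scaffold (-0.33 ± 0.08). Trim28 was lost whichever library was left out (limma adjusted p 0.0530 to 0.149), and Med14 without any of Phf6 WT 1, Phf6 WT 3, Phf6 KO 1 and Phf6 KO 3 (0.0876 to 0.132). Scaled to library totals, neither fell, and 14 of 29 differences were positive in place of 9.

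Fkbp4, on chromosome 6 (128429735 to 128438677, minus strand), encodes FKBP52. Phf6 WT libraries had 16261, 15609 and 14142 normalised reads and Phf6 KO libraries 10533, 10830 and 8945. The groups did not overlap. Of all tested genes 31.2% separated in this way, 16.2% with Phf6 KO lower and 15% with Phf6 KO higher. The mean fell from 15337 ± 1085 to 10103 ± 1013 (SD, n = 3 each), to 0.659 of the Phf6 WT level. Its log2 fold change was -0.60 ± 0.10 (SE; 95% interval -0.82 to -0.39; limma adjusted p 0.00717). It remained past the threshold without any single library (adjusted p 0.0092 to 0.0460) and under edgeR's quasi-likelihood test (adjusted p 0.0117), but limma without intensity trend and robust variance gave an adjusted p of 0.0517.

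Fkbp5, on chromosome 17 (28399094 to 28517527, minus strand), encodes FKBP51, which the receptor also induces. Its normalised reads were 36449, 38129 and 48323 in Phf6 WT and 40885, 31437 and 33605 in Phf6 KO. The highest value was Phf6 WT library 3 and the lowest Phf6 KO library 2, with the remaining libraries interleaved. The log2 fold change was -0.21 ± 0.13 (SE; 95% interval -0.51 to 0.08; limma adjusted p 0.353). Since the immunophilins compete for a place in the receptor complex, their ratio per exon length was examined. It was 0.662, 0.721 and 1.01 in Phf6 WT (mean 0.797 ± 0.186 SD, n = 3) and 1.15, 0.857 and 1.11 in Phf6 KO (1.04 ± 0.157, n = 3). The groups overlapped, with Phf6 WT library 3 above Phf6 KO library 2. The difference in log2 ratio was 0.39 (p = 0.2, two-sided exact permutation test, smallest possible 0.1).

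The fall of Fkbp4 stood among falls of other genes that fold steroid receptors. Of 22 tested genes of this HSP90 machinery, 0 rose and 4 fell (18.2% called, beside 8.75% of all tested genes, of which 3.43% fell). Without Fkbp4 and Fkbp5 it was 3 of 20 (15%). A negative log2 fold change was found for 21 of the 22, beside 9305 of all 17993, and the median was -0.28 against -0.01 over all tested genes. In 13 of the 22 every Phf6 KO library was below every Phf6 WT library, as in 16.2% of all tested genes. The T-lineage marker sum was also lower in every Phf6 KO library (log2 ratio -0.18), and its part in these falls was not tested. The largest part of that sum was Tcf7 (1692 CPM, -0.49, fell), then Lck (875 CPM, -0.26, not past the threshold). The next, Lat (656 CPM, -0.09) and Cd3d (510 CPM, 0.05), overlapped between groups. Besides Fkbp4 the falls were Hspa8, the constitutive HSP70 (107289, 107414 and 91745 against 65457, 77696 and 66544 normalised reads), Stip1, the adaptor between HSP70 and HSP90, and Ahsa1, an activator of the HSP90 ATPase. Their log2 fold changes were -0.55 ± 0.10, -0.44 ± 0.09 and -0.35 ± 0.08 (SE; limma adjusted p 0.0124, 0.0178 and 0.0271). Both cytosolic HSP90 genes, named for their role after their values were seen, had negative values without passing: Hsp90aa1 -0.32 ± 0.11 (adjusted p 0.104) and Hsp90ab1 -0.26 ± 0.09 (adjusted p 0.1003). Fkbpl, a divergent immunophilin-like cochaperone, was the single positive gene. The count of falls changed with the library left out. It was 1 without Phf6 WT 1 or Phf6 KO 3, 2 without Phf6 WT 3, and 7 without Phf6 KO 2. Fkbp4 was among the falls in each case. Falls among all tested genes changed too, from 618 to 88 without Phf6 WT 1 and 57 without Phf6 KO 3. They numbered 169 without Phf6 WT 3 and 338 without Phf6 KO 2. With library totals as the scaling, 17 of 22 values were negative and 3 genes fell.

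**Figure D3:**
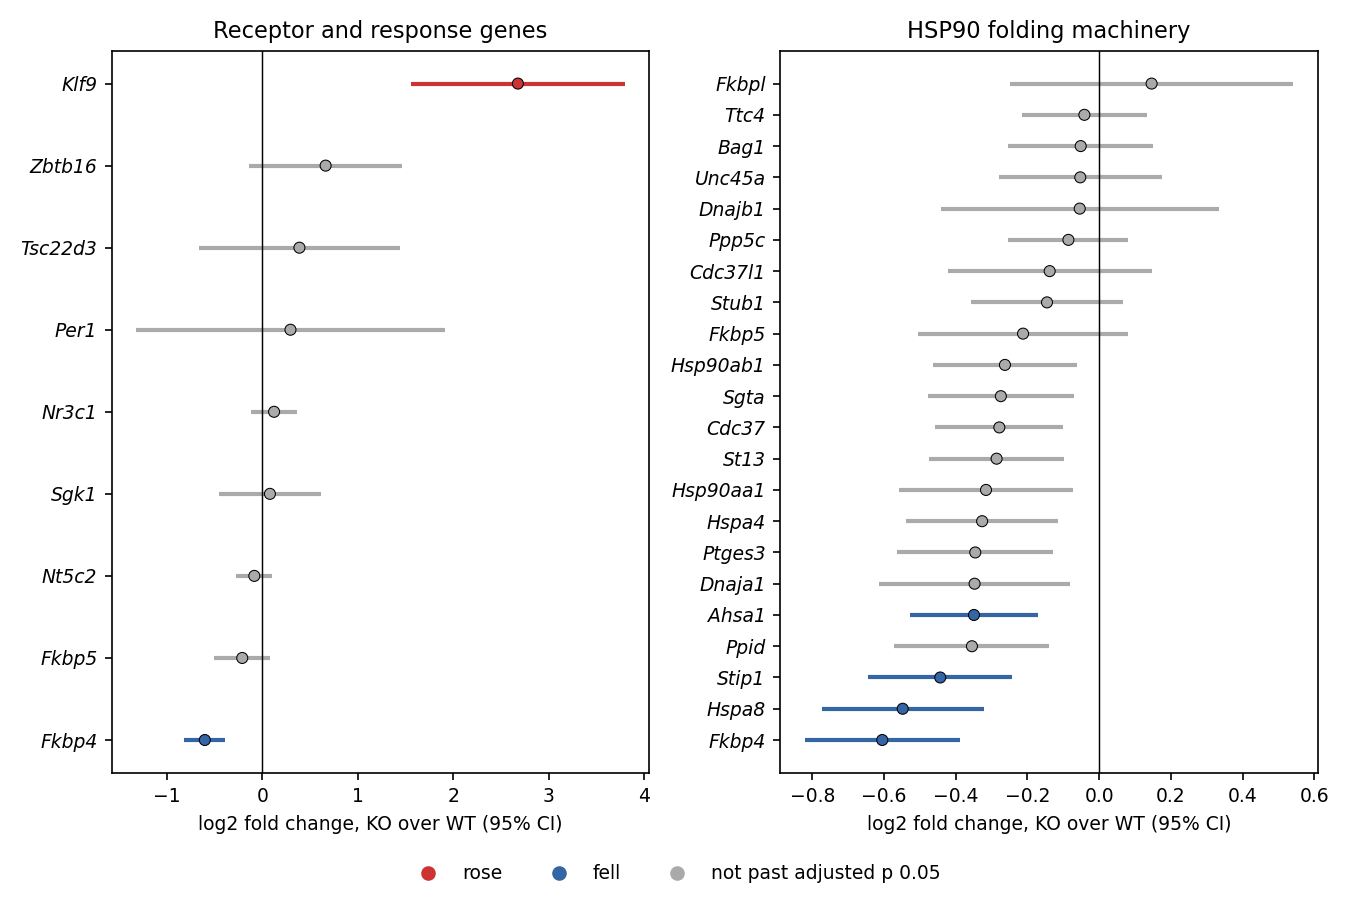
Log2 fold changes of Phf6 KO over Phf6 WT with 95% intervals for the 9 genes (left) and for 22 genes of the HSP90 folding machinery (right), coloured by the limma call at an adjusted p of 0.05; the horizontal scales differ. Klf9 (2.68) lies to the right and Fkbp4 (-0.60) to the left in the left panel, and 21 of 22 points in the right panel lie below 0.

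Among the wider FK506-binding protein family, 15 genes were tested, 0 rose and 2 fell, with a median of -0.03 (13.3% called, beside 8.75% of all tested genes, and 7.69% without Fkbp4 and Fkbp5). The second was Fkbp1a, the small immunophilin that binds FK506 and rapamycin (-0.38 ± 0.08, limma adjusted p 0.0191). Its call was lost without Phf6 WT 1, Phf6 WT 3 or Phf6 KO 3 (adjusted p 0.0569 to 0.0922). Fkbp7, an endoplasmic reticulum member, had a log2 fold change of 0.71 ± 0.22 that did not pass (adjusted p 0.0778).

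Tsc22d3, on chromosome X (140539528 to 140600659, minus strand), is a receptor target in thymocytes and leukaemic lymphoblasts. It had 4510, 8671 and 3745 normalised reads in Phf6 WT and 5332, 9737 and 6318 in Phf6 KO. Library 2 was high in both groups, at 2.10 times the mean of libraries 1 and 3 in Phf6 WT and 1.67 times in Phf6 KO. The group means, 5642 ± 2651 and 7129 ± 2312 (SD, n = 3 each), overlapped widely, with a log2 fold change of 0.39 ± 0.41 (SE; 95% interval -0.67 to 1.44; limma adjusted p 0.622). With library 2 of both groups left out, an alternative chosen after seeing the data, the log2 fold change was 0.50 (limma adjusted p 0.0236). That fit kept only libraries 1 and 3 of each group and took out the highest value of each. It therefore cannot decide whether Tsc22d3 differed between groups.

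Per1, on chromosome 11 (69095217 to 69109960, plus strand), showed the same arrangement more strongly. Its values were 5142, 12856 and 3668 normalised reads in Phf6 WT and 5271, 11925 and 7104 in Phf6 KO. Library 2 stood at 2.92 times the mean of the other libraries in Phf6 WT and 1.93 times in Phf6 KO. The log2 fold change was 0.29 ± 0.61 (SE; 95% interval -1.32 to 1.91; limma adjusted p 0.814), and its sign turned without Phf6 WT 3 (-0.09) or Phf6 KO 2 (-0.03). The spread within each group therefore exceeded the difference between groups for both genes.

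Klf9, on chromosome 19 (23141226 to 23168134, plus strand), was the single riser. Its values were 18.02, 20.7 and 4.52 normalised reads in Phf6 WT and 58.4, 120 and 103 in Phf6 KO, from 18, 21 and 5 sequenced reads against 56, 116 and 103. The groups did not overlap, with Phf6 KO higher as in 15% of tested genes. Phf6 WT 3 lay under 10, the level the test required in 3 libraries, so Klf9 entered it only through Phf6 KO. The mean was 14.4 ± 8.7 in Phf6 WT and 94.1 ± 32.0 in Phf6 KO (SD, n = 3 each), 6.52 times higher. On the log2 scale the change was 2.68 ± 0.49 (SE; 95% interval 1.56 to 3.80; limma adjusted p 0.0154). The call was lost without Phf6 KO 3 (2.58, adjusted p 0.0965) and under limma without trend and robust variance (adjusted p 0.0564), and held under edgeR (adjusted p 0.0154). Without Phf6 KO 3, rises among all tested genes also went from 957 to 134. Klf9 stayed a rare transcript in Phf6 KO. The neutrophil sum, the macrophage and monocyte sum and the B-cell sum were also higher in every Phf6 KO library than in any Phf6 WT library. Within Phf6 KO, Klf9 was lowest in library 1 and highest in library 2. The macrophage and monocyte sum (180, 290 and 254 CPM) and the B-cell sum (14.96, 24.2 and 22.0 CPM) had that order. So did the innate lymphocyte sum (719, 880 and 849 CPM), which overlapped between groups. The neutrophil sum was lowest in library 3 (1364, 1412 and 1109 CPM). Within Phf6 WT, Klf9 was lowest in library 3 and highest in library 2, as was the macrophage and monocyte sum (76.2, 108 and 57.1 CPM). There the B-cell sum was highest in library 1 (8.96, 7.04 and 6.70 CPM). The part of these sums in the result was not tested.

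Zbtb16, on chromosome 9 (48654297 to 48836222, minus strand), encodes a zinc-finger protein of innate-like T cells and progenitors. It had 8.01, 7.90 and 9.94 normalised reads in Phf6 WT and 11.5, 12.5 and 22.1 in Phf6 KO. Every Phf6 KO library was higher, but all Phf6 WT values lay under 10, so the gene entered the test only through its Phf6 KO libraries. This gave a log2 fold change of 0.66 ± 0.36 (SE; 95% interval -0.14 to 1.47; limma adjusted p 0.287), from 8 to 22 sequenced reads a library.

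Sgk1, on chromosome 10 (21882184 to 21999903, plus strand), carries the full response element shown above. It had 2147, 1418 and 2558 normalised reads in Phf6 WT and 1961, 1853 and 2521 in Phf6 KO. Here library 2 was the lowest of both groups, the reverse of Tsc22d3 and Per1. The log2 fold change was 0.08 ± 0.23 (SE; 95% interval -0.45 to 0.61; limma adjusted p 0.865), and it turned negative without Phf6 WT 2 (-0.16) or Phf6 KO 3 (-0.06).

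A further 37 tested genes were listed as induced by glucocorticoids, and their induction in these cells was not measured. The list included the clock genes Per2 and Nr1d1. Of the 37 genes, 5 rose and 0 fell (13.5% called, beside 8.75% of all tested genes, of which 5.32% rose). Log2 fold changes were positive for 30, beside 8688 of all 17993, and the median was 0.20. The risers were Mt1, a metallothionein (76.1, 184 and 146 against 463, 425 and 502 normalised reads, log2 fold change 1.85 ± 0.29), and Cebpd, a transcription factor of myeloid cells and inflammation (37.0, 82.0 and 50.6 against 165, 173 and 155, 1.58 ± 0.27). Il1r2, the decoy receptor for interleukin-1, which neutrophils carry, had 13.01, 51.4 and 41.6 against 146, 316 and 286 normalised reads (2.87 ± 0.52). Txnip, a thioredoxin inhibitor, had 6551, 9511 and 8531 against 10934, 11784 and 13017 (0.55 ± 0.13), and Cdkn1c, a cell-cycle inhibitor, 119, 119 and 92.2 against 210, 185 and 155 (0.72 ± 0.20). Limma adjusted p-values ran from 0.00827 for Mt1 to 0.0486 for Cdkn1c. No call of the 5 survived without Phf6 KO 3 (adjusted p 0.0657 to 0.163), so the count was 0 there, and Cdkn1c was also lost under edgeR (adjusted p 0.0514). Of the libraries whose loss changed it beyond 1.5 times, Phf6 WT 1 and Phf6 KO 1 left 3 and Phf6 WT 3 left 2. Rises among all tested genes went from 957 to 134 without Phf6 KO 3 and 376 without Phf6 WT 1. They numbered 614 without Phf6 KO 1 and 496 without Phf6 WT 3. With 1 library left out, Mt1 and Cebpd kept their calls in 5 of 6 fits, Il1r2 in 3, and Txnip and Cdkn1c in 1. Limma without trend and robust variance lost Il1r2, Cdkn1c and Txnip (adjusted p 0.0511 to 0.123). Among the 37 genes, 9 were higher in every Phf6 KO library, the 5 risers included, beside 15% of all tested genes. The neutrophil, macrophage and monocyte, and B-cell sums were also higher in every Phf6 KO library, and their part was not tested. Anxa1, which encodes annexin A1 and was named after its values were seen, had 406, 1438 and 556 against 3351, 4546 and 3100 normalised reads. Every Phf6 KO library was higher, as for those sums (log2 fold change 2.39 ± 0.53), yet the gene did not pass (limma adjusted p 0.0650), whereas edgeR called it (adjusted p 0.0194).

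Bcl2l11 encodes BIM, the BH3-only protein through which glucocorticoids trigger apoptosis in lymphoblasts, and was singled out for that role. It had 1632, 3451 and 1433 normalised reads in Phf6 WT and 2496, 3881 and 2075 in Phf6 KO. Library 2 was again the highest in each group and the groups overlapped (log2 fold change 0.44 ± 0.43, limma adjusted p 0.595). Without library 2 of both groups the log2 fold change was 0.57 and passed (adjusted p 0.0122).

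The high library 2 of Per1, Tsc22d3 and Bcl2l11 was noticed after their values were seen, and is given as a description with no test. Library 2 was the highest in both groups for 20.9% of tested genes and the lowest in both for 18.7%. For 3.41% it was at least 1.5 times the mean of libraries 1 and 3 in both groups. Among the 37 glucocorticoid-induced genes it was the highest in both groups for 21 (56.8%) and the lowest for 1, and 9 (24.3%) passed the 1.5-fold mark. Among 20 circadian clock genes other than Per1 and Klf9 it was the highest for 13 (65%) and the lowest for 2, and 6 (30%) passed that mark. The 2 lists share genes and together held 55. Library 2 was the highest in both groups for 33 of the 55 and the lowest for 3, and 15 passed that mark. Under scaling by library totals, TMM factors or upper quartiles the shares were 56.8% in each case for the first list and 60% to 70% for the second, beside 16.2% to 20.4% of all genes. Of the 9 genes, Nr3c1, Tsc22d3, Per1 and Klf9 had library 2 highest in both groups, and Tsc22d3 and Per1 passed the 1.5-fold mark.

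Irs2, Bhlhe40 and Klf10 are given as examples chosen after their values were seen. Irs2, an insulin receptor substrate, had 2805, 8422 and 1611 normalised reads in Phf6 WT and 2172, 8523 and 2433 in Phf6 KO. Bhlhe40, a clock repressor, had 150, 874 and 85.9 against 319, 2067 and 608, and Klf10, a zinc-finger repressor, 7200, 16779 and 4116 against 5754, 20654 and 7652. Library 2 stood above its neighbours by severalfold in both genotypes for these 3 genes. Other genes did not share the arrangement. Fkbp5 and Sgk1 did not, nor did the clock outputs Nr1d1 (337, 304 and 371 against 376, 305 and 301) and Dbp (302, 302 and 289 against 316, 322 and 266). Phf6 WT library 2 also had the highest neutrophil sum of its group (478 CPM, beside 132 and 214). In Phf6 KO the sum of library 2 (1412 CPM) was close to that of library 1 (1364 CPM). The macrophage and monocyte sum had library 2 highest in both groups (76.2, 108 and 57.1 against 180, 290 and 254 CPM). The innate lymphocyte sum did as well (783, 887 and 673 against 719, 880 and 849 CPM). Its largest parts were Id2 (279 CPM), Gata3 (215 CPM), Il17rb (114 CPM) and Il2rb (101 CPM). Klrb1c, Klrd1 and Eomes averaged 5.77, 2.00 and 0.654 CPM. Id2 itself had library 2 highest in both groups (12700, 20015 and 8148 against 11255, 18329 and 12413 normalised reads). The T-lineage sum had library 2 lowest in both (5686, 5349 and 5753 against 5322, 4639 and 4902 CPM). The part of these sums in the arrangement was not tested.

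**Figure D4:**
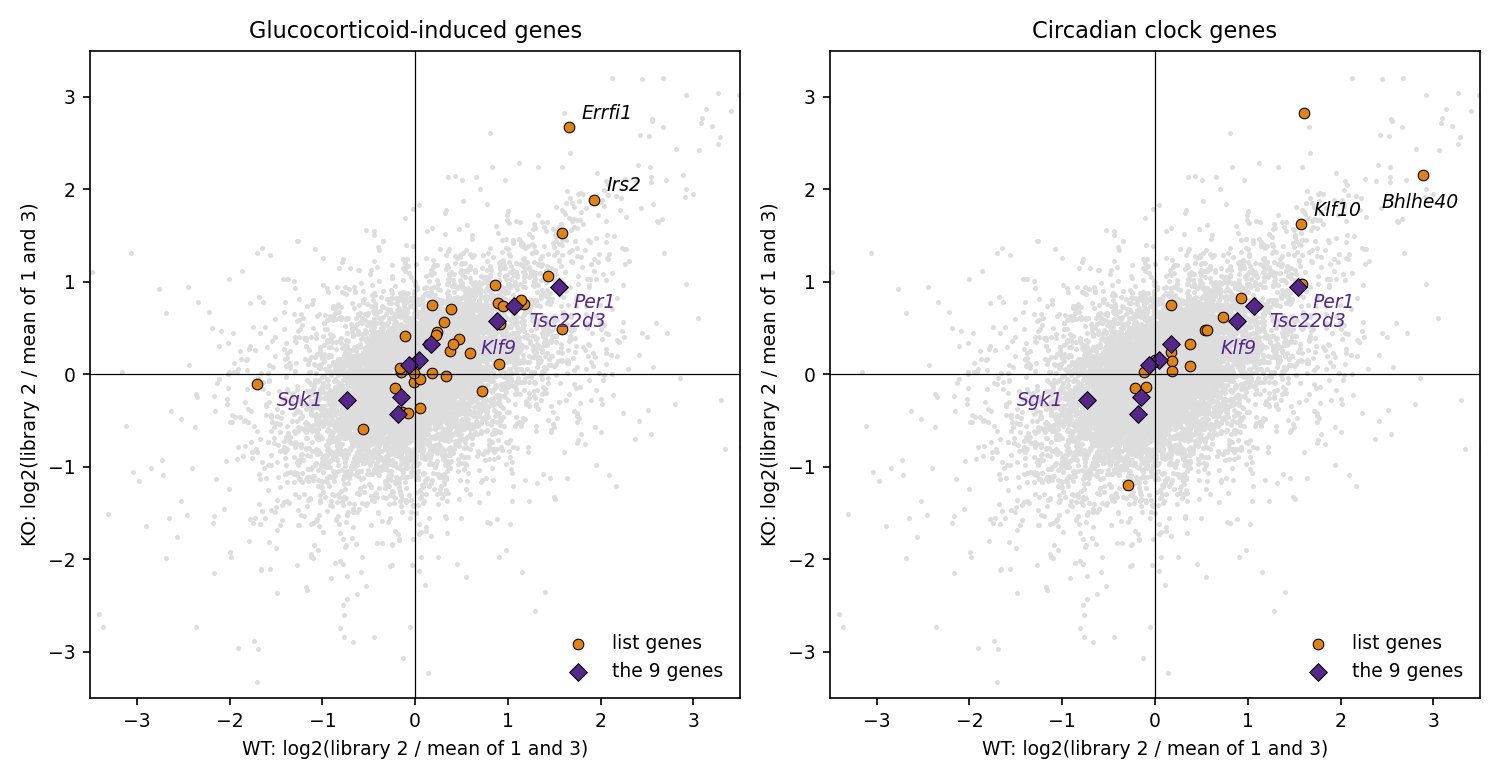
Log2 ratio of library 2 to the mean of libraries 1 and 3 in Phf6 WT (horizontal) and Phf6 KO (vertical) for tested genes (grey; 16 of 17985 lie beyond the axis limits of 3.5), glucocorticoid-induced genes or clock genes (orange) and the 9 genes (purple). Per1, Tsc22d3, Irs2 and Bhlhe40 lie in the upper right, where library 2 was high in both groups, and Sgk1 in the lower left.

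As clock genes, the 22 tested held 1 riser, Klf9, and 0 falls (4.55% called, below the 8.75% of all tested genes; median 0.21 on the log2 scale). Per3 and Nr1d2, the next by p, did not pass (0.25 and 0.37). Genes that convert or export steroids, with the mineralocorticoid receptor, numbered 13 tested genes, and 0 rose and 0 fell with a median of -0.03. The mineralocorticoid receptor Nr3c2, which also binds corticosterone, had 168, 132 and 146 against 200, 193 and 199 normalised reads (log2 fold change 0.41 ± 0.17, limma adjusted p 0.157). Srd5a1, a steroid reductase, and Hsd11b1, which regenerates active glucocorticoid, had log2 fold changes of -0.47 ± 0.16 and 0.56 ± 0.22 (adjusted p 0.104 and 0.145). Of 12 tested paralogs of the 9 genes, 2 rose and 0 fell (16.7% called, beside 8.75% of all tested genes, of which 5.32% rose; median 0.31). They were Sgk3, a kinase related to Sgk1 (17.0, 51.4 and 17.2 against 93.9, 149 and 159 normalised reads, 2.30 ± 0.42), and Zbtb7b, the ThPOK factor (64.1, 91.8 and 50.6 against 156, 185 and 221, 1.45 ± 0.25). Sgk3 lost its call without Phf6 WT 1 or Phf6 KO 3 (adjusted p 0.0626 and 0.0914) and Zbtb7b without Phf6 KO 3 (0.0722). Among the 12 paralogs, 4 were higher in every Phf6 KO library, Sgk3 and Zbtb7b included, beside 15% of all tested genes. The neutrophil, macrophage and monocyte, and B-cell sums were also higher in every Phf6 KO library, and their part was not tested. Tsc22d4, the paralog of Tsc22d3, had -0.23 and did not pass.

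Nt5c2, on chromosome 19 (46883317 to 47015153, minus strand), is the gene whose activating mutations in relapsed leukaemia inactivate thiopurines. It had 3768, 3517 and 3569 normalised reads in Phf6 WT and 3539, 3566 and 3136 in Phf6 KO. The libraries lay close together, and the groups overlapped. The means were 3618 ± 132 and 3414 ± 241 (SD, n = 3 each), with a log2 fold change of -0.09 ± 0.08 (SE; 95% interval -0.27 to 0.10; limma adjusted p 0.576). An exon of Ina overlaps the gene on the opposite strand, and the sources used here do not say whether counting used strand. The expression patterns most like that of Nt5c2 over the 6 libraries were those of Calu, Bcl2l13 and Chmp7 (Pearson r 0.9906, 0.9899 and 0.9894 among 10361 genes). In the nucleotidase family 8 genes were tested, 0 rose and 1 fell, with a median of -0.15 (12.5% called, beside 8.75% of all tested genes). The fall was Nt5dc2 (5185, 4854 and 5030 against 3958, 3485 and 3222 normalised reads, -0.50 ± 0.09, adjusted p 0.0120), lost without Phf6 WT 1 or Phf6 KO 3 (0.0612 and 0.0661). Nt5c3b and Nt5dc1 had -0.28 and 0.29 and did not pass.

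The thiopurine and purine salvage list held 33 tested rows, of which 2 rose and 4 fell, with a median of -0.10 (18.2% called, beside 8.75% of all tested genes, of which 5.32% rose and 3.43% fell). Gda, guanine deaminase, had 101, 249 and 115 against 582, 908 and 1073 normalised reads (log2 fold change 2.52 ± 0.38, limma adjusted p 0.0124). Samhd1, a nucleotide hydrolase abundant in myeloid cells, had 103, 198 and 81.3 against 316, 751 and 699 (2.20 ± 0.44, adjusted p 0.0299). Among the 33 rows, 5 were higher in every Phf6 KO library, Gda and Samhd1 included, beside 15% of all tested genes. The same 3 marker sums were also higher in every Phf6 KO library, and the part of those cells was not tested. The falls were Slc29a1, a nucleoside transporter (16174, 16631 and 15426 against 11163, 12889 and 10885, -0.47 ± 0.09), Impdh2, the rate-limiting enzyme of guanine nucleotide synthesis (-0.39 ± 0.08), Nme1, a nucleoside diphosphate kinase (-0.38 ± 0.09), and 1 of the 2 identifiers listed as Ppat, the first enzyme of purine synthesis (-0.38 ± 0.09). Hprt, which activates thiopurines and was named for that role, had 7020, 7167 and 6729 against 6051, 6508 and 5538 normalised reads. Every Phf6 KO library was lower, but the gene did not pass (-0.21 ± 0.08, adjusted p 0.152). The counts changed with the library left out. Without Phf6 WT 1 or Phf6 KO 3 there were 0 rises and 0 falls, and without Phf6 WT 3 there were 0 rises and 1 fall. Among all tested genes, 957 rises and 618 falls became 376 and 88 without Phf6 WT 1. They became 134 and 57 without Phf6 KO 3, and 496 and 169 without Phf6 WT 3. Without Phf6 KO 1 the list had 3 rises and 1 fall, and without Phf6 KO 2 it had 1 rise and 3 falls. With library totals as the scaling, 3 rose and 2 fell.

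Taking the 9 lists together without the 9 genes, 176 genes were tested, of which 9 rose and 11 fell (11.4%, beside 8.75% of all tested genes). Without Phf6 KO 3 these counts were 0 and 0, without Phf6 WT 1 they were 4 and 0, without Phf6 WT 3 they were 4 and 3, and without Phf6 KO 1 they were 8 and 5. All tested genes had 957 rises and 618 falls with every library kept. In the same order of libraries left out they had 134 and 57, 376 and 88, 496 and 169, and 614 and 344.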

How the data were processed

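PolyA RNA of 6 T-ALL samples was sequenced, 3 Phf6 WT and 3 Phf6 KO as titled in the labels. The genome build was GRCm38 and the tools were featureCounts, DESeq2, STAR 2.6.0a and bcl2fastq 1.8.4, per the submitters' processing notes. The sources used here do not give the annotation, strand setting or treatment of multi-mapping reads.

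The deposited table holds a normalised signal per gene and library. Per the values, the authors divided gene counts by 1 size factor per library: dividing by each library's step gave whole reads for 100% of values within 0.01. Of 23314 rows, 8 had no identifier (at most 0.00106% of reads) and were left out. GENCODE M21 held 23277 of the other 23306 identifiers and gave positions and exon lengths for TPM.

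Log2(value + 2) was tested in R 4.3.3 with limma 3.58.1 (robust empirical Bayes with an intensity trend), group as the only term, genes with at least 10 in 3 libraries, and Benjamini-Hochberg adjustment over 17993 genes. This scale understates changes of low genes. EdgeR 4.0.16 and DESeq2 1.42.0 on recovered reads, other scalings, pseudocounts and filters, a replicate block and leaving out libraries were alternatives. On simulated data the test recovered 59 of 100 genes changed by 2-fold and 24 of 100 changed by 1.5-fold, and 9 of 92 calls were false (17648 genes). The named genes were Phf6, the 9 genes, up to 3 of each list by p and the 3 most like Nr3c1 and Nt5c2; others named are called genes or were picked once values were known. The 9 genes and all lists were chosen with earlier results of these data known.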

Additional observations from a re-analysis of the deposited data

How the results depend on the processing

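The log2 fold change of Fkbp4 stayed between -0.66 and -0.52 and that of Klf9 between 2.11 and 3.01 with each library left out. Limma without trend and robust variance kept both values (-0.60 and 2.68) but called 0 rises and 0 falls among the 9 genes, 528 rises and 124 falls among all genes, and 4 rises and 0 falls among the related genes. Without library 2 of both groups, chosen after seeing the data, 2 of the 9 genes rose (Klf9, and Tsc22d3 with 0.50), Sgk1 turned to -0.076, all genes had 933 falls, and the related genes had 17 rises and 18 falls. DESeq2 called 14 rises and 19 falls among the related genes, and library totals as scaling gave them 6 falls and all genes 300 falls. With 1 library left out, all genes had 134 to 1156 rises and 57 to 783 falls, the 9 genes 0 to 1 rises, and the related genes 0 to 11 rises and 0 to 12 falls. In those fits Per1 ranged from -0.089 to 0.82, Sgk1 from -0.16 to 0.26, Usp27x from -0.001 to 0.27 and the log2 ratio of the innate lymphocyte sum from -0.033 to 0.17 (TMM scaling -0.021). Calu (0.010) and Chmp7 (0.024) turned positive under library totals. Zbtb16 met the filter in 3 of 6 such fits. The cause of these shifts was not tested.

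Deviations from the group means correlated at 0.01, 0.50 and 0.14 between same-numbered libraries, and at 0.38 between Phf6 WT 3 and Phf6 KO 1, so the numbers were not taken to pair the samples. A replicate block gave 1459 rises and 1109 falls among all genes, 2 rises among the 9 genes (Tsc22d3 0.39, adjusted p 0.0436), and 19 rises and 22 falls among the related genes.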
